A study of Bos taurus with 33 samples.

Results

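The piRNA pathway genes described here are DDX4, PIWIL1, PIWIL2, PIWIL3, MAEL, TDRD1, TDRKH, MOV10L1, ASZ1 and PLD6, 10 of the 17543 genes listed for bovine oocytes or cumulus cells (CC). They were chosen by gene symbol, without a cutoff on a measured value but with earlier results of these data known. Rows were joined between cell types by Ensembl identifier. All 10 were listed for oocytes, and 4 (PIWIL2, MAEL, TDRKH and ASZ1) were listed for CC, whereas DDX4, PIWIL1, PIWIL3, TDRD1, MOV10L1 and PLD6 had no CC row under either their symbol or their identifier. RNA was sequenced from pools of 4 oocytes and from pools of the CC of the same 4 cumulus-oocyte complexes. The complexes were aspirated from the pre-ovulatory follicles of suckled postpartum Hereford-Angus beef cows. In the small classification (follicles up to 11.7 mm, 6 oocyte and 6 CC pools) and the large classification (from 12.7 mm, 6 and 6 pools), cows had shown no estrus and a GnRH injection (GnRH2) induced the gonadotropin surge. In the spontaneous classification (11.7 to 14 mm, 4 oocyte and 5 CC pools), cows had shown estrus, received no GnRH2 and had an endogenous surge. All cows had been synchronized with earlier GnRH and prostaglandin injections, and follicles were aspirated about 23 h after GnRH2 or estrus by the protocol, or about 20 h by the sample labels.

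PIWI-interacting RNAs (piRNAs) are small RNAs of animal germ cells that guide PIWI proteins, a branch of the Argonaute family, to transcripts of transposable elements and to some messenger RNAs. Long precursor transcripts are unwound and delivered for cutting on the outer membrane of mitochondria, the resulting fragments are loaded onto PIWI proteins and trimmed, and Tudor domain proteins hold the machinery together by binding methylated arginines of the PIWI proteins. The pathway is best known from the testis. Mouse females lacking several of its genes remain fertile, but the oocytes of cattle, hamsters and humans express PIWIL3, a PIWI gene that mice do not have.

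The unit is CPM, reads of a gene for each 1000000 reads assigned to genes in its pool. Between 7664375 and 17934916 reads lay on genes in an oocyte pool and between 1911600 and 5772431 in a CC pool. For a gene listed at 0, an expected count of up to 3 reads was allowed as a limit. These 3 reads were worth 0.167 to 0.391 CPM in an oocyte pool and 0.52 to 1.57 CPM in a CC pool. Such limits cover counting error only, because reads of amplified cDNA are not independent molecules. Summed over 10 oocyte markers, including GDF9, BMP15 and the zona pellucida genes, oocyte pools held 8910 to 12875 CPM and CC pools 1.71 to 13.7 CPM, and BMP15, ZP4, KPNA7 and FIGLA had no CC row. Summed over 10 cumulus and granulosa markers, CC pools held 10468 to 32691 CPM and oocyte pools 531 to 3979 CPM, a sum carried mostly by VCAN (16662 CPM on average in CC and 1269 in oocytes), while HAS2 and CD44 of the same list were higher on average in oocytes (193 against 75.5 CPM and 18.9 against 6.06 CPM). A CPM is a share of the RNA of a pool, in which fewer cells of a type and less RNA per cell cannot be told apart.

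Transcripts of all 10 genes were found in every one of the 16 oocyte pools, and the listed values of 9 of the 10 were higher in each oocyte pool than in any of the 17 CC pools. A missing CC row was counted as 0 here, and ASZ1 was the exception. When CC pools at 0 were set to the worth of 3 reads, 8 genes remained separated, since PIWIL1 was lower than that in 1 oocyte pool. The separation by listed values held for 28.1%, and that with the limit for 27.1%, of the 10076 transcripts retained in oocytes, those that reached 5 CPM or more in 4 or more oocyte pools. All 10 genes passed that filter in oocytes and only ASZ1 passed the corresponding filter in CC (5 CPM or more in 5 or more of the 17 pools). The oocyte and CC tables were scaled separately, so levels are set side by side without a test.

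DDX4 (ENSBTAG00000008871), the germ cell RNA helicase also known as VASA, averaged 23.4 ± 12.7 CPM in oocyte pools (SD, n = 16), between 5.31 and 49.8 CPM. Among the PIWI genes, PIWIL3 (ENSBTAG00000015526) averaged 29.0 ± 12.1 CPM in oocyte pools (lowest 11.7, highest 55.1) and PIWIL2 (ENSBTAG00000015835) 24.6 ± 10.3 CPM (7.44 to 39.0). PIWIL1 (ENSBTAG00000006468) averaged 7.30 ± 5.06 CPM, and its lowest value, 0.327 CPM in small replicate 4, rested on 4 reads. DDX4, PIWIL1 and PIWIL3 thus had reads in all oocyte pools and no row for CC. That a missing row means no read in any CC pool is not stated in the CC table, which lists no gene without a read. On that reading, and allowing 3 reads over all CC pools together, which give a mean of at most 0.0923 CPM when they fall in the pool with the fewest reads, mean CPM was at least 253-fold higher in oocytes for DDX4, at least 79.1-fold for PIWIL1 and at least 314-fold for PIWIL3. PIWIL2 had 20 reads in all, spread over 5 CC pools, a mean of 0.288 CPM, and its oocyte mean was 85.5-fold that in CC, or 128-fold without the highest CC pool.

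Genes of piRNA precursor handling and cutting were likewise present in oocytes. MOV10L1 (ENSBTAG00000020341), the helicase that binds piRNA precursors, averaged 36.2 ± 12.6 CPM (18.9 to 55.4). PLD6 (ENSBTAG00000008009), the mitochondrial endonuclease that cuts them, averaged 8.72 ± 5.25 CPM (2.67 to 21.8). Neither had a CC row, which by the same reckoning places their oocyte means at least 393-fold and at least 94.5-fold higher. TDRD1 (ENSBTAG00000006855), a Tudor protein that binds PIWI proteins, had 119 ± 32.1 CPM (64.2 to 190) in oocytes and no CC row, so that its oocyte mean was at least 1291-fold higher. In all, 6 of the 10 genes lacked a CC row, against 2.6% of the transcripts retained in oocytes.

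MAEL (ENSBTAG00000016550), the germ cell protein maelstrom that takes part in transposon silencing, averaged 249 ± 88.0 CPM in oocytes, between 162 and 488 CPM. It had 66 reads in CC, of which 37 were in small replicate 1 and 28 in large replicate 4. The oocyte mean was 249-fold the CC mean of 1.0 CPM, and 705-fold when the highest CC pool was left out. The size of this ratio thus rested mostly on small replicate 1 and large replicate 4 of CC. TDRKH (ENSBTAG00000021594), the Tudor protein of the mitochondrial outer membrane that assists trimming, averaged 46.3 ± 11.3 CPM in oocytes (26.6 to 72.2) and 0.863 ± 0.795 CPM in CC (n = 17, highest 2.65), a ratio of 53.6. ASZ1 (ENSBTAG00000000169), an ankyrin repeat protein of the same membrane, stood apart. It had 43.3 ± 12.8 CPM in oocytes (20.1 to 65.7) and 8.81 ± 10.4 CPM in CC (0 to 34.5), a ratio of 4.91. Mitochondrially encoded genes (9 listed for oocytes, 11 for CC) took 0.744 to 4.18% of oocyte reads and 11.4 to 38.7% of CC reads. That share lowers the CPM of other genes more in CC. With these genes left out, ASZ1 averaged 43.8 CPM in oocytes and 11.4 CPM in CC.

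**Figure D1:**
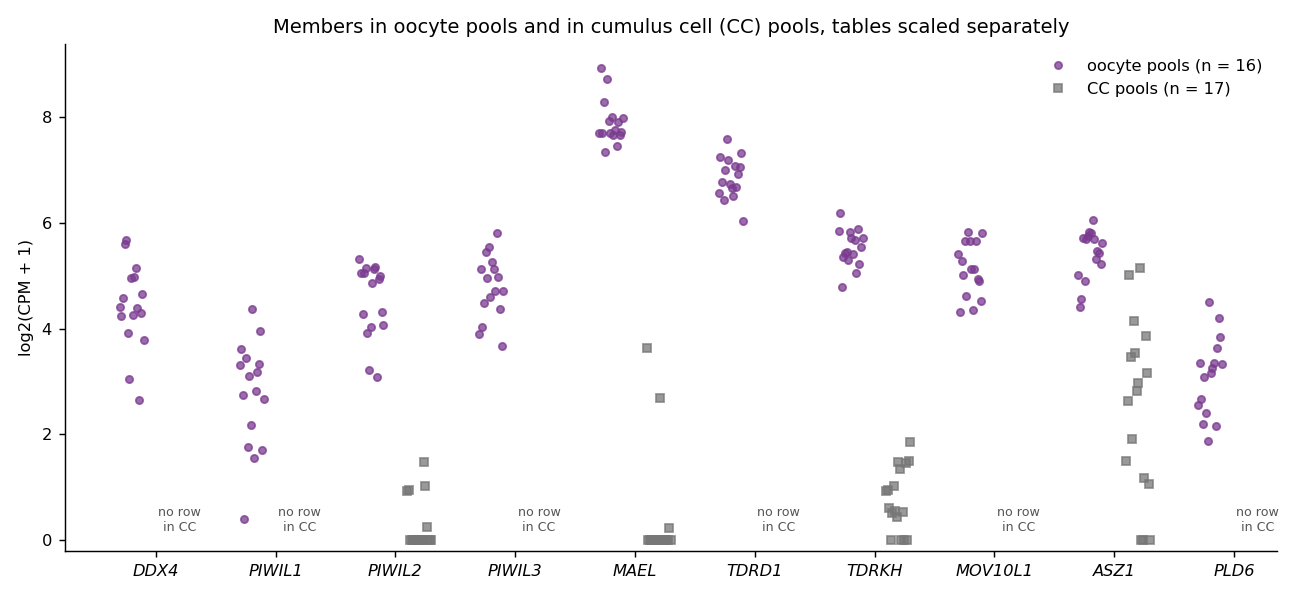
Level of each gene as log2(CPM + 1) in 16 oocyte pools (circles) and, for the 4 genes listed for CC, in 17 CC pools (squares); genes without a CC row are marked. Oocyte circles lie above every CC square except for ASZ1, where 2 CC pools lie above the lowest oocyte pool.

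ASZ1 was the member most regularly found in CC, with 617 reads in 14 of the 17 pools. Small CC pools held 1.84 to 31.4 CPM (median 7.63, n = 6) and large CC pools 0 to 34.5 CPM (median 6.46, n = 6). The spontaneous CC pools held 1.25, 13.5, 7.99, 1.09 and 0 CPM. Large replicate 4 and small replicate 3 were the highest CC pools, and 12 of the 16 oocyte pools lay above both. TDRKH had reads in 13 CC pools but never more than 12 in a pool. PIWIL2 had more than 3 reads in 2 CC pools, with 8 in large replicate 6 and 5 in spontaneous replicate 1, and MAEL had 0 reads in 14 CC pools.

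The oocyte markers had only 343 reads in all CC pools together. For every 100 reads of these markers, ASZ1 had 180 reads in CC and 0.193 to 0.649 reads in oocyte pools, and 14 of the 17 CC pools exceeded the highest oocyte pool. TDRKH had 19.2 reads per 100 marker reads in CC against 0.259 to 0.692 in oocyte pools, with 13 CC pools above the highest oocyte pool. For MAEL the ratio was 19.2 in CC against 1.57 to 4.68 in oocyte pools, with 2 CC pools above, and for PIWIL2 5.83 against 0.0655 to 0.336, with 5 CC pools above. A CC pool held only 4 (small replicate 3) to 79 (small replicate 6) marker reads. In any CC pool, 1 read of ASZ1, TDRKH or PIWIL2 was therefore enough to exceed the oocyte range. For these genes the counts of pools above it are simply the pools with a read, and they carry no further information. MAEL had no read in 14 and PIWIL2 none in 12 CC pools. Small replicate 6 had the highest marker sum, 13.7 CPM, beside 16.6 CPM of ASZ1, and large replicate 4 had a marker sum of 2.93 CPM beside 34.5 CPM of ASZ1. The part of oocyte RNA in the CC values was not tested beyond these ratios.

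**Figure D2:**
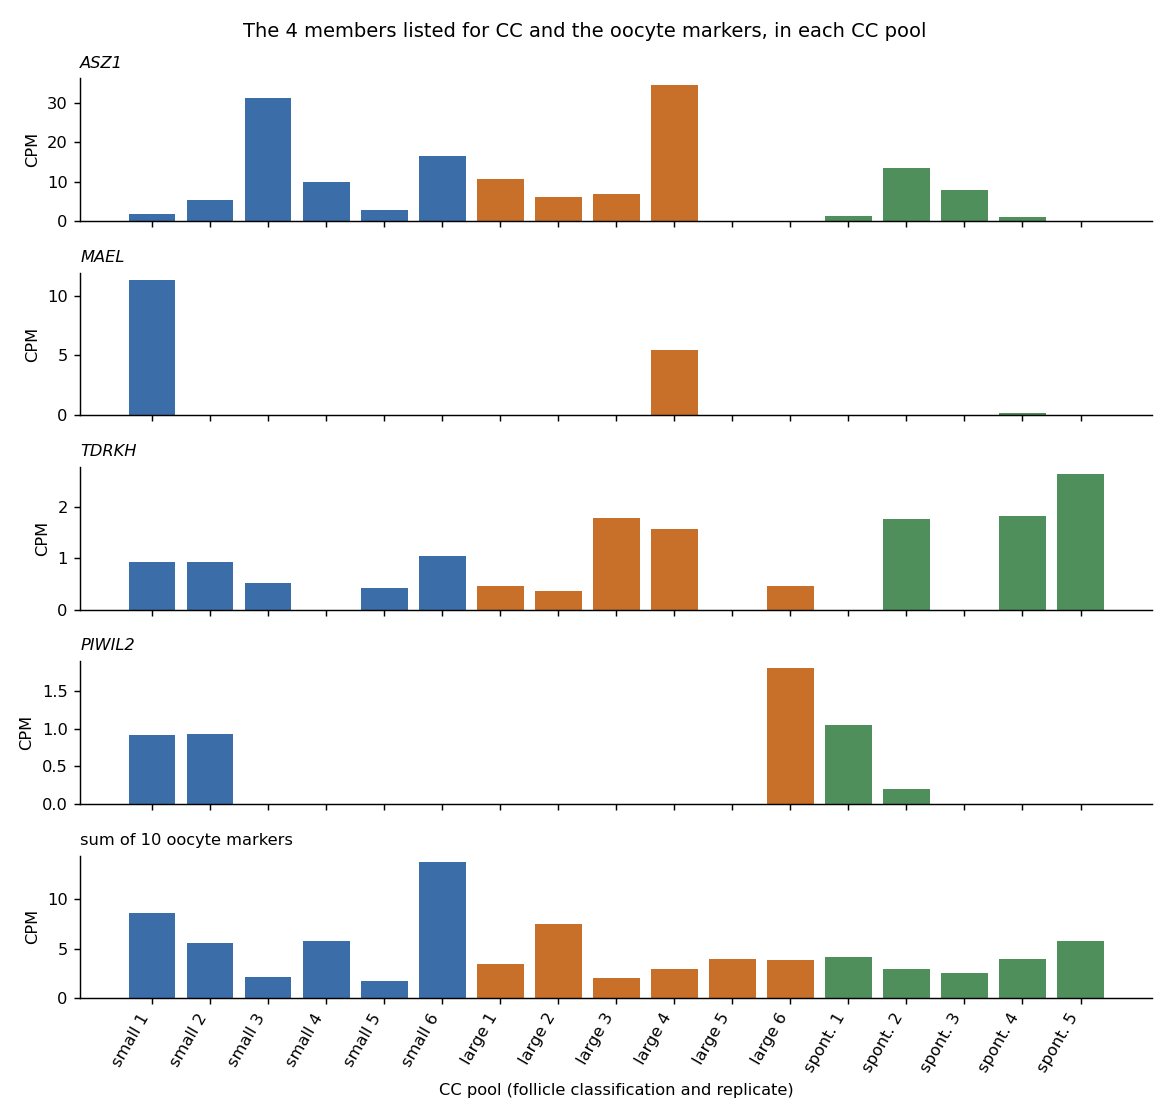
CPM of ASZ1, MAEL, TDRKH and PIWIL2 and the summed CPM of 10 oocyte markers in each of the 17 CC pools, coloured by follicle classification. ASZ1 bars appear in 14 pools and reach 34.5 CPM in large replicate 4, whereas MAEL is nearly confined to small replicate 1 (11.3 CPM) and large replicate 4 (5.46 CPM).

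Within oocytes the genes varied between pools to different degrees. The coefficient of variation over the 16 pools ran from 24.4% for TDRKH to 69.3% for PIWIL1, with counting error alone giving 1.76 to 10.2%. It exceeded the median of all retained oocyte transcripts, 45.9%, for 3 genes (DDX4, PIWIL1 and PLD6). MAEL was unevenly spread among the classifications: small pools ranged from 162 to 488 CPM (median 258, n = 6), whereas large pools lay between 175 and 253 CPM (median 210, n = 6) and spontaneous pools were at 240, 202, 209 and 250 CPM. The 2 highest MAEL values, 488 and 421 CPM, were those of small replicates 2 and 6. The mean was highest in small pools for 4 genes (DDX4, PIWIL2, MAEL and TDRD1), in large pools for 4 (PIWIL1, PIWIL3, MOV10L1 and ASZ1) and in spontaneous pools for 2 (TDRKH and PLD6). In all 3 comparisons the 2 classifications compared overlapped for each of the 10 genes. The share of all retained transcripts with such an overlap was not counted, so the overlap is no particular trait of these genes.

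**Figure D3:**
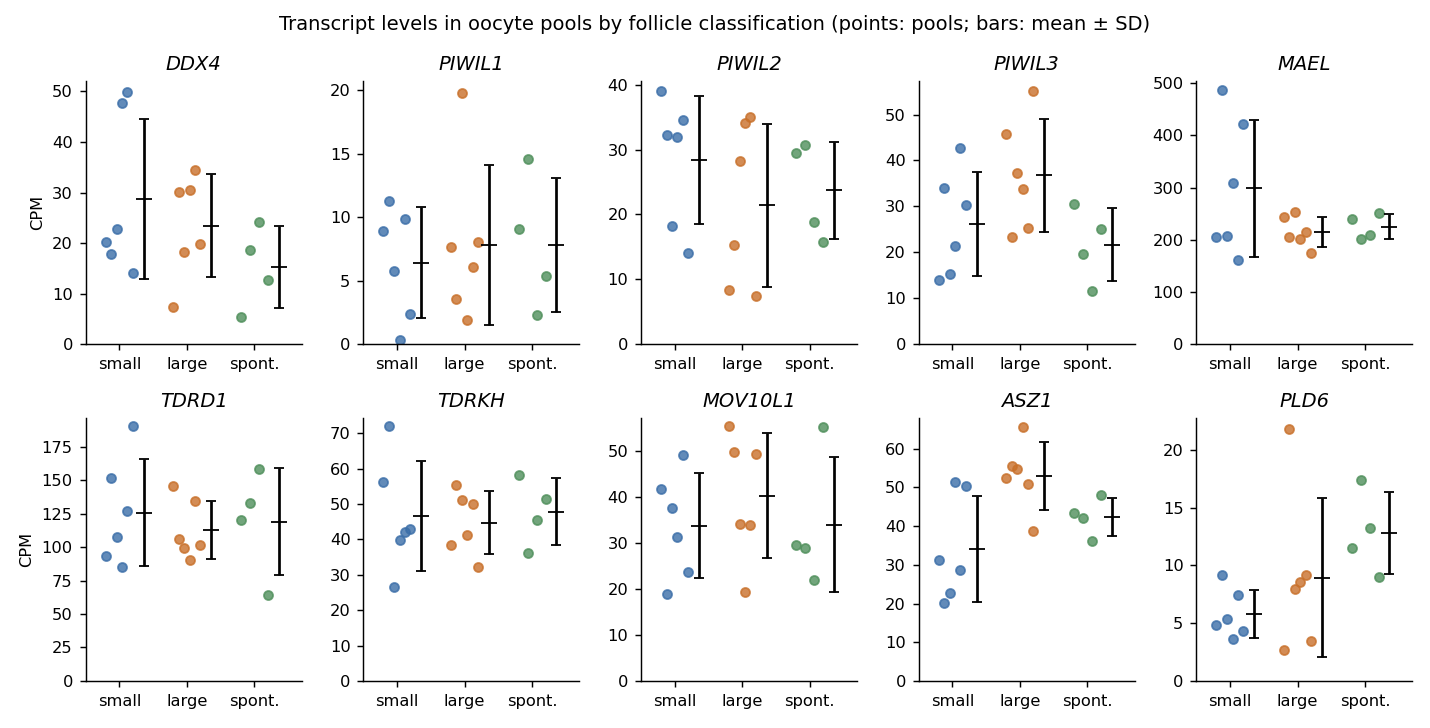
CPM of each of the 10 genes in small (n = 6), large (n = 6) and spontaneous (n = 4) oocyte pools, one point per pool, with the mean and SD as black bars; each panel has its own vertical axis from 0. The points of the 3 classifications overlap in every panel, and those of ASZ1 in small pools (20.1 to 51.4 CPM) lie mostly below those in large pools (38.7 to 65.7 CPM).

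From small to large follicles, no member passed the threshold of a nominal p of 0.01 or less in limma, fitted across all retained transcripts on log2(CPM + 1), against 0.655% of the 10076 transcripts, and none passed by edgeR or DESeq2 on the recovered reads. ASZ1 was the only member with an unadjusted p under 0.05, a level reached by 4.11% of all transcripts. Its 6 small pools ranged from 20.1 to 51.4 CPM (median 29.9) and its 6 large pools from 38.7 to 65.7 CPM (median 53.6), so that 4 of the small pools lay below every large pool. The means were 34.1 ± 13.6 and 53.0 ± 8.72 CPM (SD, n = 6 in both), which on the log2 scale was a difference of 0.69 with a standard error of 0.307 (limma p = 0.0312, adjusted p = 0.997; exact permutation p = 0.0173). Without small replicate 3, an oocyte pool that the study also set aside in this comparison, the limma p of ASZ1 was 0.0736. PIWIL3 averaged 26.2 CPM in small and 36.7 CPM in large pools and PIWIL2 28.4 and 21.4 CPM, with limma p-values of 0.168 and 0.228. MAEL averaged 299 and 215 CPM (exact permutation p = 0.184; limma p = 0.093, or 0.0463 without small replicate 3). Log2 fold changes of the 10 genes lay between -0.54 and 0.69 with a median of 0.11, beside 0.05 over all transcripts.

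From small to spontaneous follicles, again no member passed, against 0.774% of all transcripts (limma), nor with edgeR or DESeq2, and none had an unadjusted limma p under 0.05, against 4.51% of transcripts. PLD6 had the largest difference. Its small pools held 3.60 to 9.17 CPM (median 5.11, n = 6) and its spontaneous pools 11.5, 17.4, 13.3 and 9.03 CPM. Spontaneous replicate 4, at 9.03 CPM, was the only spontaneous pool below the highest small pool. Means were 5.79 ± 2.11 (n = 6) and 12.8 ± 3.53 CPM (n = 4), or 1.04 apart on the log2 scale with a standard error of 0.626 and a 95% interval from -0.24 to 2.32. The limma p was 0.107 (adjusted p = 0.987), whereas exact permutation of the mean CPM gave p = 0.00952, where 0.00476 is the smallest it can give. The limma and permutation results for PLD6 thus fell on different sides of the nominal threshold. DDX4 averaged 28.7 CPM in small and 15.2 CPM in spontaneous pools, which on the log2 scale differed by -0.89 (exact permutation p = 0.181; limma p = 0.108, standard error 0.534). The median over the 10 genes was -0.05, beside 0.05 over all transcripts.

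Between large and spontaneous follicles no member passed by limma, edgeR or DESeq2 either, against 0.943% of all transcripts in limma, and none had an unadjusted limma p under 0.05, against 4.87% of transcripts. PIWIL3 had the largest difference. Its large pools held 23.2 to 55.1 CPM (median 35.5, n = 6) and its spontaneous pools 30.4, 19.6, 11.7 and 25.1 CPM. Of the spontaneous pools, 2 were below every large pool and 2 lay within the range of the large pools. The mean was 36.7 ± 12.2 CPM in large and 21.7 ± 8.01 CPM in spontaneous pools, with a log2 difference of -0.75 (standard error 0.405, 95% interval -1.58 to 0.08, limma p = 0.0759, adjusted p = 0.968, exact permutation p = 0.0667). PLD6 averaged 8.93 and 12.8 CPM (log2 difference 0.70, limma p = 0.26, exact permutation p = 0.343), and its large pools included the highest value of the gene, 21.8 CPM in replicate 2. The other members ranged from -0.62 for DDX4 to 0.33 for PIWIL2.

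**Figure D4:**
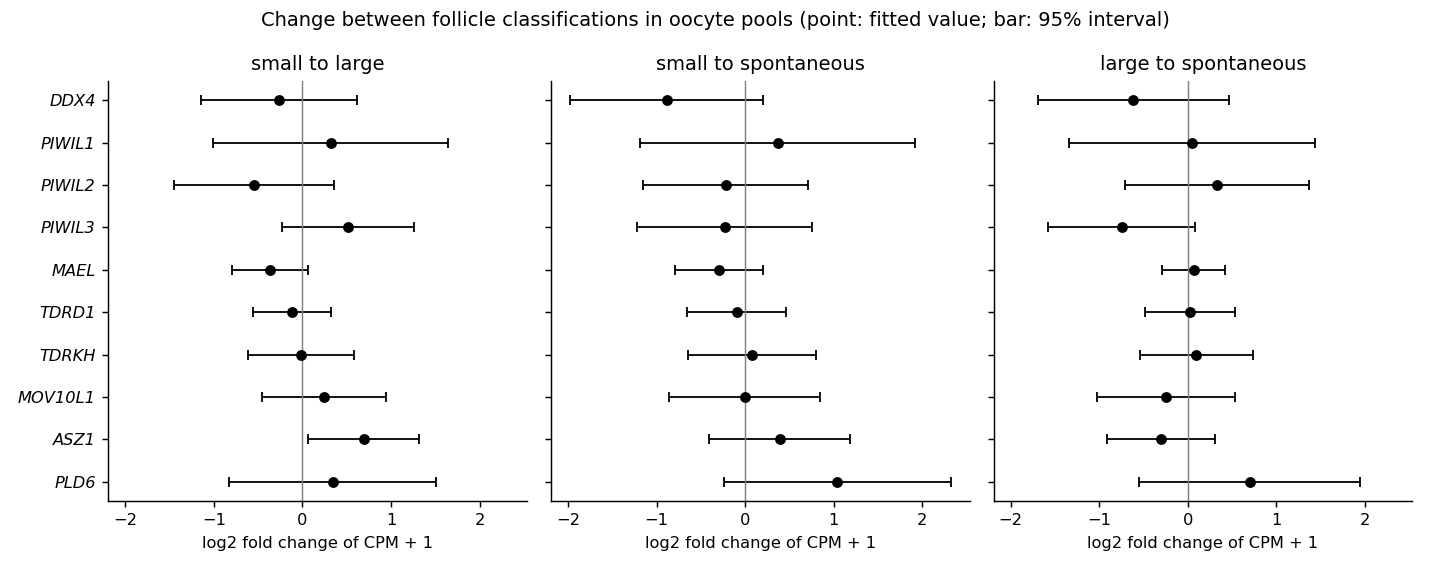
Log2 fold change of CPM + 1 for each gene in the 3 comparisons of oocyte pools (classification named second minus that named first), with 95% intervals from limma. The interval leaves out 0 only for ASZ1 from small to large follicles (0.07 to 1.32), and the 3 comparisons share pools.

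The width of these intervals sets what the pools could show. For MAEL, the gene with the narrowest intervals in the 3 comparisons, the change from large to spontaneous pools was 0.07 with an interval from -0.29 to 0.42 on the log2 scale. For PIWIL1 the interval in the same comparison ran from -1.34 to 1.44. A change of the size of 1 on the log2 scale was thus outside the interval for MAEL but within it for PIWIL1.

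In CC the comparison between classifications could be made for ASZ1 alone, and it was not called in any of them. Mean CPM was 11.3 ± 11.2 in small (n = 6), 9.69 ± 12.9 in large (n = 6) and 4.76 ± 5.80 in spontaneous pools (n = 5). Spread exceeded the mean in the last 2 classifications. Log2 fold changes were -0.70 from small to large (standard error 0.779, limma p = 0.381), -1.26 from small to spontaneous (standard error 0.703, limma p = 0.0899, adjusted p = 0.669, exact permutation p = 0.284) and -0.56 between large and spontaneous pools (standard error 0.88, limma p = 0.53). The shares of all retained CC transcripts called were 0.813%, 2.38% and 1.66%, respectively, and the gene was not called by edgeR or DESeq2. The scale of CC pools also differed: the median log2 difference of the retained CC transcripts was 0.16 between small and spontaneous pools and 0.11 between large and spontaneous pools, and 0.01 in both after median-of-ratios scaling.

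Reads of the 3 PIWI genes were divided differently from pool to pool. Of the 301 to 1117 PIWIL1, PIWIL2 and PIWIL3 reads of an oocyte pool, PIWIL3 made up 22.5 to 78.1%, PIWIL2 10.5 to 63.0% and PIWIL1 0.61 to 23.2%, shares that are not corrected for transcript length and serve only to compare pools. The share of PIWIL2 was 46.8% ± 12.5 in small (n = 6), 32.5% ± 17.5 in large (n = 6) and 45.4% ± 9.75 in spontaneous pools (n = 4). That of PIWIL3 was 43.1% ± 13.8, 56.3% ± 16.4 and 41.0% ± 10.5, respectively. None of the 9 differences between classifications passed an exact permutation test (smallest p = 0.136, adjusted p = 0.506).

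No pair of the 10 genes was shown to vary together over the oocyte pools. Of the 45 pairs, 22 had a positive Pearson correlation of log2(CPM + 1) over the 16 pools, with a median of -0.0057, from -0.49 (MAEL and MOV10L1) to 0.43 (MAEL and TDRKH). None reached an unadjusted p under 0.05 in a permutation test, and the smallest adjusted p was 0.787. These values include differences between the classification means. With those means removed, r ran from -0.59 (PIWIL1 and ASZ1) to 0.51 (PIWIL2 and PLD6), which was not tested. The transcripts whose pattern over the 16 oocyte pools was most like that of MAEL, the member with the highest mean CPM, were MICAL2 (Pearson r 0.84, Spearman rho 0.65), NUF2 (r 0.83, rho 0.63), GSR (r 0.82, rho 0.68), TFG (r 0.79, rho 0.62) and ARAP2 (r 0.78, rho 0.56), the highest of 10075 searched. Without small replicates 2 and 6, the pools farthest from the median of MAEL, r fell to between 0.36 and 0.64, so the likeness rested in large part on those pools.

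Many other genes of the pathway were also found in oocytes. Of 21 further piRNA pathway genes, 19 were listed for oocytes and 16 retained, of which 10 were higher in every oocyte pool than in every CC pool, and 1, the helicase TDRD9, had no CC row. The 3 with the highest oocyte mean CPM were TDRD7, a Tudor protein of germ granules (554 ± 64.4 CPM in oocytes, 54.8 ± 17.1 in CC), GTSF1, a zinc finger cofactor of PIWI proteins (234 ± 46.9 and 0.234 ± 0.461), and the Tudor gene TDRD5 (218 ± 47.8 and 10.1 ± 5.68). TDRD6, another Tudor gene, lay the other way, with 2.96 ± 4.07 CPM in oocytes and 40.2 ± 14.7 in CC, as did SPOCD1 at much lower levels (0.0693 ± 0.277 and 0.64 ± 1.53), and both are named because of these values. PIWIL4 and TDRD15 were listed in neither table.

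Genes of germ cell RNA binding and of the microRNA and siRNA pathway were counted in the same way, and no test compared the lists. Of 14 germ cell RNA-binding genes, 10 were retained in oocytes and 8 of these were higher in every oocyte pool than in every CC pool. YBX2, a germ cell protein that stores messenger RNA, had 334 ± 84.9 CPM in oocytes and 0.0451 ± 0.109 in CC, ELAVL2 182 ± 33.1 and 0.171 ± 0.369, and DAZL 172 ± 58.2 and 0.87 ± 1.02. Of 13 microRNA and siRNA pathway genes, 12 were retained in oocytes and 13 in CC, and 5 of the 12 were higher in every oocyte pool. DICER1, which cuts microRNA precursors in the cytoplasm, had 591 ± 99.6 CPM in oocytes and 232 ± 44.2 in CC. DROSHA, which makes the first cut in the nucleus, had 349 ± 64.0 and 23.0 ± 5.80, and TNRC6B, a partner of Argonaute proteins, 746 ± 135 and 94.4 ± 26.0. Means were higher in CC for YTHDC2 of the germ cell list (30.9 CPM in oocytes, 53.6 in CC) and for AGO1 (16.2 and 24.3), AGO3 (9.73 and 29.6), AGO4 (5.21 and 26.9) and TNRC6C (18.2 and 24.0) of the microRNA and siRNA list, which are named for that reason. NANOS3 of the germ cell list was listed for CC but not for oocytes. NANOS1, NANOS2 and CPEB1 of that list were listed for neither.

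**Figure D5:**
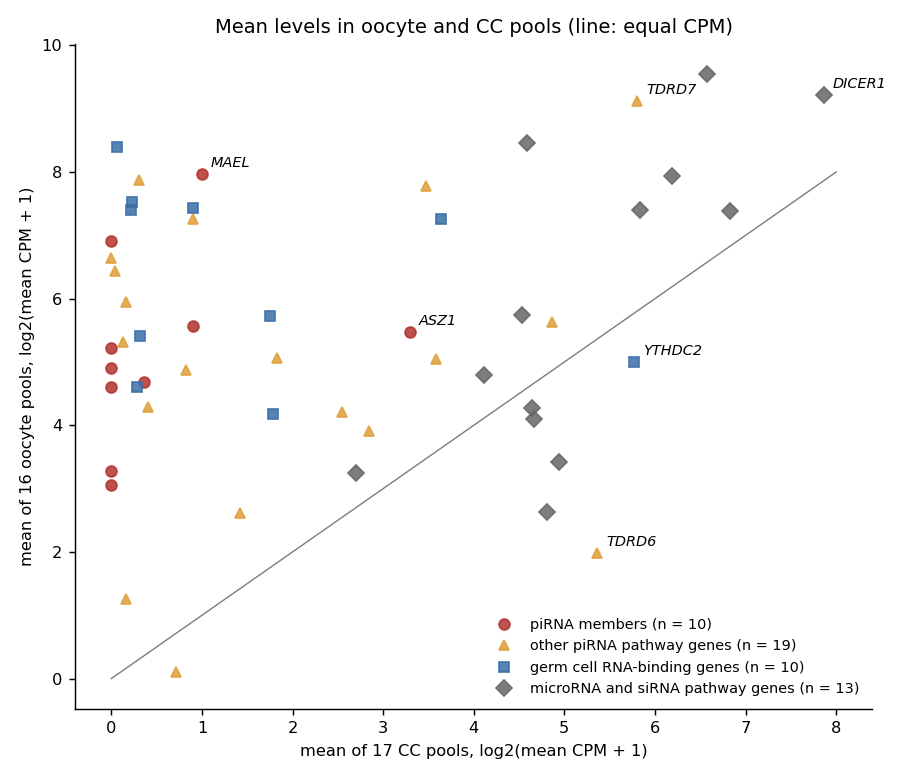
Mean level in 16 oocyte pools against mean level in 17 CC pools, as log2(mean CPM + 1), for the 10 genes and those genes of 3 other lists that were listed for oocytes. The line marks equal CPM, and genes without a CC row are drawn at a CC mean of 0. The 10 genes lie above the line with CC means at or near 0, apart from ASZ1, while most microRNA and siRNA pathway genes have CC means well above 0. TDRD6 lies below the line, as do SPOCD1, YTHDC2, AGO1, AGO3, AGO4 and TNRC6C.

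Between classifications, 3 genes of these lists were called, each in 1 comparison, and none had an adjusted p under 0.05 in limma. Of all transcripts, 0.774% were called in the comparison of WDR77, 0.943% in that of MYBL1 and 2.38% in that of RBM46, so that a few calls over 6 comparisons are near the background. WDR77, a partner of the arginine methyltransferase PRMT5, rose from 6.21 ± 8.35 CPM in small (n = 6) to 27.1 ± 6.86 in spontaneous oocyte pools (n = 4), a log2 fold change of 2.79 (adjusted p = 0.755 in limma, exact permutation p = 0.0143). Its small pools held 0 to 21.9 CPM (median 3.33) and its spontaneous pools 20.5 to 34.9 CPM, and the call was lost with edgeR and DESeq2. MYBL1, a transcription factor of piRNA loci in the testis, fell from 40.7 ± 17.2 CPM in large (n = 6) to 17.2 ± 12.1 in spontaneous oocyte pools (n = 4), a log2 fold change of -1.33 (adjusted p = 0.968 in limma, exact permutation p = 0.0619). This call was lost in 12 of 19 alternative analyses, among them edgeR, DESeq2 and leaving out any 1 of 8 pools. RBM46, a germ cell RNA-binding protein, rose in CC from 6.93 ± 3.52 CPM in small (n = 6) to 18.0 ± 6.16 in spontaneous pools (n = 5), a log2 fold change of 1.31 beside a median of 0.16 over all transcripts (adjusted p = 0.295 in limma, exact permutation p = 0.00866), and was called in all 20 alternative analyses. The median log2 difference of the further piRNA pathway genes in oocytes was 0.15 between small and large pools, -0.02 between small and spontaneous and 0.11 between large and spontaneous pools.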

How the data were processed

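Total RNA of each pool was amplified to cDNA (Ovation RNA-Seq V2) and sequenced from one end. The authors trimmed the reads, used Hisat2 for alignment to UMD3.1 and featureCounts for counts per Ensembl gene. Tool versions and strand are not given in the sources used here. The deposited values are CPM, scaled separately for oocytes and CC. The authors left out an oocyte pool with little cDNA. From the CPM, whole reads could be recovered (100% of values within 0.01 read). Columns were matched to pools by name, and 0 stayed unmatched. Where a symbol was blank or differed between oocytes and CC, genes were matched by Ensembl identifier, as for AGO2, listed as EIF2C2 for oocytes. No coordinates or sequences are given, since neither a UMD3.1 genome nor sequence tables were used here.

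The members and gene lists were chosen with earlier results of these data known. Retained transcripts (5 CPM or more in 4 or more oocyte or 5 or more CC pools) were tested between 2 classifications with limma 3.58.1 (R 4.3.3) on log2(CPM + 1), two-sided, with a mean-variance trend and no covariate. A call needed a nominal p of 0.01 or less in limma. In the 2 oocyte comparisons with small pools this was also needed without small replicate 3, a step taken from the study. Adjusted p-values are Benjamini-Hochberg values over all retained transcripts. The study tested counts and required that nominal p in both edgeR and DESeq2, with an empirical false discovery rate from reshuffled samples. Here the 2 tools were run on the recovered reads as separate alternatives (edgeR 4.0.16, quasi-likelihood, and DESeq2 1.42.0), so calls are not those of the study. Exact permutation tests compared mean CPM, two-sided. Fold changes are on the log2(CPM + 1) scale, which understates changes of low transcripts. The labels do not say which cows gave each pool, so p-values measure the spread between pools. Nor do they state which oocyte and CC pools came from the same complexes, and that correspondence was not used. Replicates differed beyond sampling noise in every pair, with chi-square values of at least 13.4 per degree of freedom. All members were named, with full statistics for those with limma p under 0.05 or the largest change. From the other lists, genes called or among the 3 with the highest oocyte mean were named. Reads per 100 marker reads, PIWI read shares and pair correlations (100000 resamples) were chosen after seeing the data. Figures used Python 3.11.15 and matplotlib 3.10.9.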

Additional observations from a re-analysis of the deposited data

Results flagged for a closer look

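Within 42 groups of 4 to 6 pools, 8 had a pool far from the others by Dixon's criterion, which chance alone meets in about 1 in 20 groups. In oocytes these were PIWIL1 in large replicate 3, at 19.7 CPM against 8.03 in the next pool, and PLD6 in large replicate 2, at 21.8 CPM against 9.14. In CC, ASZ1 reached 34.5 CPM in large replicate 4 against 10.7 in the next large pool. MAEL stood out in the same pool, at 5.46 CPM, and in small replicate 1, at 11.3 CPM, with no MAEL read in any other pool of either classification, and in spontaneous replicate 4, at 0.182 CPM, on 1 read. PIWIL2 stood out in CC at 1.81 CPM in large replicate 6 and at 1.04 CPM in spontaneous replicate 1. In the CC groups of MAEL and PIWIL2 most pools were at 0, so that 1 pool with a few reads is enough to stand apart.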

How the results depend on the processing

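No member was called in any of the 6 comparisons under any alternative: edgeR, DESeq2, 3 classifications in one fit, median-of-ratios scaling, leaving out mitochondrially encoded genes, a pseudocount of 0.1, filtering on a mean of 1 CPM or not at all, and each pool left out. With the replicate number as a block, 0 members were called in each comparison. Same-numbered pools did not deviate together (r from -0.19 to 0.22), so the numbers were not taken as pairs. ASZ1 from small to large kept its direction (log2 difference 0.57 to 0.83 over 22 alternatives, 0 of them at a nominal p of 0.01 or less), as did PLD6 from small to spontaneous (0.89 to 1.18 over 20, again 0). The WDR77 call was lost in 3 of 20 alternatives (the block, edgeR and DESeq2). Counts over all transcripts moved by over 1.5 times in these cases. DESeq2 called 114 against 66 (oocyte small to large), 122 against 78 (small to spontaneous) and 181 against 95 (large to spontaneous), and the block 41 against 78. In CC, 1 fit of 3 classifications called 137 against 79 (small to large). From small to spontaneous, median-of-ratios scaling called 126, CPM without mitochondrially encoded genes 129 and edgeR 128, against 231. Leaving out each pool gave 48 to 94, 49 to 133 and 75 to 144 in oocytes, in that order, and 52 to 114, 144 to 313 and 91 to 236 in CC. Moves of over 1.5 times came from small replicate 3 (133) and spontaneous replicates 3 (49) and 2 (144) in oocytes. Without small replicate 3 a call needed only 1 fit, so its counts of 94 and 133 are not like those of 66 and 78. With all pools and 1 fit, 90 were called from small to large and 95 from small to spontaneous. In CC they came from small replicate 5 (52), spontaneous replicate 5 (144 from small, and 100 from large against 161) and spontaneous replicate 4 (91 from large). Depth limits PIWIL2, MAEL and TDRKH in CC, where most pools had 3 reads or fewer, whereas in oocytes the spread between pools exceeded counting error for all members.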
